A study of Mus musculus with 18 samples.

Results

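The genotypes Klf6PTKO (PTKO) and Klf6fl/fl (fl/fl) were compared in mouse kidney cortex after a course of aristolochic acid I (AAI) and a period left for remodeling. The comparison used 6 of the 18 libraries of the series, 3 PTKO AA 6wk and 3 fl/fl AA 6wk, chosen by their labels. It covered 14604 tested genes of the 24062 gene symbols in the table. Klf6 is a DNA-binding regulator of transcription with zinc fingers, one of the Krüppel-like factors. PTKO mice carry the proximal tubule knockout of Klf6 and fl/fl mice the floxed Klf6 alleles, both on C57Bl/6. The kidneys of both groups had 3 weeks of AAI and then 3 weeks without it, which the labels count as 6 weeks. The other 4 groups, 3 libraries each, were PTKO and fl/fl kidneys at the end of 3 weeks of AAI (AA 3wk) and under the DMSO vehicle. The labels used here give neither the promoter that drove the deletion nor the age of the animals. Nor do they tie each library to an animal of its own, so a p-value reflects only how far these libraries spread, which may be technical. Total RNA was sequenced. The reads counted to genes in the table numbered 19011323 to 19552233 in the PTKO libraries and 11722625 to 20063456 in the fl/fl libraries of the comparison.

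AAI is a plant toxin that is taken up by the proximal tubule, where it damages DNA. After such an injury the tubule can regain its transporters and its many mitochondria, or it can stay dedifferentiated while fibroblasts lay down collagen and macrophages and lymphocytes persist around it. The comparison therefore bears on matrix genes, genes of respiration and genes of inflammation in the chronic phase.

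Both groups held a library that stood apart from the others. In fl/fl replicate 2, the shallowest library, the log2 levels correlated at 0.9844 with PTKO replicate 1 and 0.9825 with PTKO replicate 2, against 0.9804 and 0.9805 with the other two fl/fl libraries. PTKO replicate 3 correlated at 0.9775 and 0.9703 with the other PTKO libraries, which correlated at 0.9914 with each other. Its summed level of 19 genes of the straight proximal tubule (S3) was 4760 CPM, against 18700 and 15100 CPM in PTKO replicates 1 and 2, and 9390, 23200 and 7350 CPM in fl/fl. Its summed level of 16 genes of the thick ascending limb, which lies deeper in the kidney, was 16900 CPM, against 9780 and 7340 CPM in the other PTKO libraries and 4760 to 9790 CPM in fl/fl. PTKO replicate 2 carried fat and urothelium transcripts. Its adipocyte marker Adipoq was at 35.2 CPM and Plin1 at 18.3 CPM, while in the other 5 libraries both were below 0.1 CPM or at 0. Its urothelial Upk1b was at 11.6 CPM, against 0.102 to 4.56 CPM in the others. Xist was at most 0.256 CPM and the Y-linked Ddx3y at least 37.8 CPM in all 18 libraries. The part of these differences in the results was not tested, and the main counts are also given without fl/fl replicate 2 and PTKO replicate 3.

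After remodeling, genes called lower in PTKO kidneys were frequent among matrix, macrophage, dendritic cell and B cell lists. Genes called higher were frequent among respiratory chain subunits and early proximal tubule genes. Of T and natural killer cell genes 9.68% were lower and of neutrophil genes 11.1%, no more than the 11.8% of all genes. The share of inflammation genes called lower was 9.91%, against 8.86% of all genes, when PTKO replicate 3 was left out. With a limma test on log2(CPM + 1) and an adjusted p under 0.05, 2198 genes (15.1%) differed. Of these, 477 (3.27%) were higher in PTKO and 1721 (11.8%) were lower. The levels of the 3 PTKO and the 3 fl/fl libraries did not overlap in 4049 genes (27.7%), among them 2011 of the 2198 (91.5%). The median difference over all tested genes was -0.10 on the log2 scale, and the scaling decided much of the split. After median-of-ratios scaling, which sets that median to about 0, 812 genes (5.56%) were higher and 908 (6.22%) lower in PTKO, and after quantile normalization 828 were higher and 819 lower. List medians are therefore also given relative to -0.10. In all, 1130 of the calls, 457 higher and 673 lower, held under both scalings.

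The count rested on a spread pooled over all 18 libraries. The 6 compared libraries alone gave 163 genes (1.12%), and weights that let each group have its own spread gave 818. Without fl/fl replicate 2 the count was 3765, with 853 genes (5.84%) higher and 2912 (19.9%) lower in PTKO. Without PTKO replicate 3 it was 1700, with 406 (2.78%) higher and 1294 (8.86%) lower. Without both it was 4279, with 1010 (6.92%) higher and 3269 (22.4%) lower. Of the 2198 genes, 1215 passed in the same direction under all 3 exclusions. Leaving out fl/fl replicate 1 left 441 genes, fl/fl replicate 3 left 841 and PTKO replicate 1 left 1107. Leaving out fl/fl replicate 2 thus raised the count, and leaving out either of the other fl/fl libraries lowered it. In all, 401 calls (115 higher, 286 lower) passed in each of the 6 fits without 1 library.

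**Figure D1:**
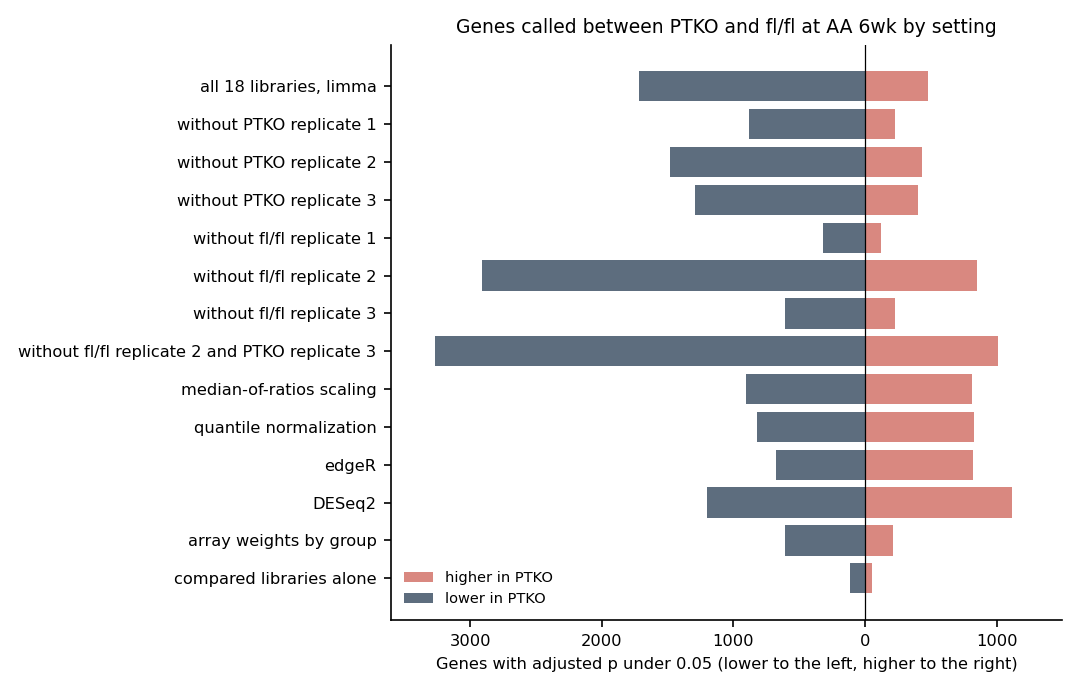
Number of genes with an adjusted p under 0.05 between PTKO and fl/fl at AA 6wk (x axis) under each setting (rows). Genes higher in PTKO extend to the right and genes lower in PTKO to the left. The most genes in all were called without fl/fl replicate 2 (853 higher, 2912 lower) and without both fl/fl replicate 2 and PTKO replicate 3 (1010 higher, 3269 lower), and the fewest of the settings drawn on the compared libraries alone (163).

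Klf6 itself (ENSMUSG00000000078.7, plus strand of chromosome 13, 5861482 to 5870394 in mm10) did not separate the genotypes. It was at 228, 254 and 370 CPM in PTKO kidneys and at 284, 201 and 270 CPM in fl/fl kidneys, so the groups overlapped. The difference was 0.16 ± 0.18 (SE) on the log2 scale (95% interval -0.22 to 0.53, exact two-sided permutation p = 0.6, of a smallest possible 0.1). It was -0.05 without PTKO replicate 3 and -0.20 without both libraries that stood apart. Klf6 transcripts of all cortical cell types enter these levels, and exons are not counted one by one, so they do not check the genotype label.

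Among genes at 5 CPM or more in the higher group whose libraries did not overlap, the largest rise in PTKO was that of Ugt1a2, which encodes a UDP-glucuronosyltransferase that conjugates drugs and bile pigment. It was at 23.2, 29.6 and 247 CPM in PTKO and at 1.64, 1.96 and 7.11 CPM in fl/fl, a log2 difference of 3.83 ± 0.69 (SE; limma, adjusted p = 0.00382). PTKO replicate 3 was far above the other PTKO libraries. Ugt1a2 lies on the plus strand of chromosome 1 (88200601 to 88218997, mm10) and shares its last exons with all genes of the Ugt1a cluster, so the assignment of its reads is uncertain. Angptl7, a secreted angiopoietin-like protein encoded on the minus strand of chromosome 4 (148495183 to 148500460), was at 137, 174 and 61.1 CPM in PTKO and at 9.42, 5.97 and 12.1 CPM in fl/fl, 3.54 ± 0.40 higher (adjusted p = 1.41e-04). Angptl7 was also called higher at AA 3wk (1.83) and, by as much as after remodeling, under DMSO (3.55). Cxcl11, a chemokine ligand of Cxcr3 which the GENCODE annotation lists as a polymorphic pseudogene, was at 11.8, 13.8 and 5.88 CPM in PTKO against 0.897, 0.768 and 1.39 CPM in fl/fl. Its difference of 2.45 ± 0.39 (adjusted p = 0.00183) was opposite in sign to the 9 chemokines called lower. Serpina6, the corticosteroid-binding globulin, was at 10.7, 5.63 and 14.1 CPM in PTKO against 0.748, 0.682 and 2.01 CPM in fl/fl, 2.35 ± 0.32 higher (adjusted p = 6.05e-04). The other genes of the 10 that rose most were Klk1b22, Eno1b, Smim6, Wdfy1, Fam213b and Slc22a8, by 1.90 to 3.62. Of these, Eno1b, Wdfy1 and Fam213b were also called higher at AA 3wk and under DMSO (2.72, 1.82 and 2.62 under DMSO). Klk1b22 (a kallikrein) and Eno1b (an intronless enolase) have near-identical relatives, which makes their counts uncertain too. Eno1b had 698 reads in all in PTKO and 5 in fl/fl, a ratio of reads over depth of 108 (95% exact interval 46.0 to 334, counting error only). Klk1b22 lost its call without PTKO replicate 1 or 3, fl/fl replicate 1 or 3, or both libraries that stood apart (adjusted p 0.0589 to 0.102).

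The deepest fall was that of Ugt2b38, another UDP-glucuronosyltransferase with close relatives. It was at 0.208, 0.0526 and 0.0511 CPM in PTKO, and at 124, 227 and 217 CPM in fl/fl. That is 6 reads in all in PTKO against 7953 in fl/fl, a level in fl/fl 1710 times that in PTKO per read of depth (95% exact interval 787 to 4670, counting error only). The difference on the log2(CPM + 1) scale was -7.38 ± 1.45 (adjusted p = 0.00571), and at AA 3wk it was -0.25 without passing. Camk2b, a subunit of a calcium-dependent kinase encoded on the minus strand of chromosome 11 (5969644 to 6066362), was at 0.675, 0.842 and 0.818 CPM in PTKO against 15.3, 10.7 and 10.8 CPM in fl/fl, a difference of -2.88 ± 0.39 (adjusted p = 6.34e-04). For Camk2b the libraries of each group lay close together and far from the other group, and its call held in all 20 alternatives. Hprt, the purine salvage enzyme often used as a reference gene, was at 15.3, 13.7 and 11.2 CPM in PTKO against 93.5, 97.3 and 99.8 CPM in fl/fl. Its difference of -2.77 ± 0.17 (adjusted p = 2.36e-07) was also called at AA 3wk (-3.1) and under DMSO (-1.62). Hprt and the ribosomal protein gene Rps2, which fell by 2.41, have processed copies in the genome, so their counts are uncertain. Others among the 10 that fell most were Mmp12, Lyz1, Pla2g2d, Mmp7 and Mfap5, of which Mmp12 and Mfap5 lost their calls without fl/fl replicate 1 (adjusted p 0.0581 to 0.0659).

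Krüppel-like factors bind GC-rich sites, so promoters were searched for the GC box GGGCGG on either strand, in RefSeq windows (GRCm38.p6) of 250 bases before to 50 after a gene's start. The box stood in a window of 206 of 354 genes higher in PTKO (58.2%), of 827 of 1282 genes lower (64.5%) and of 7230 of the 10960 tested genes with a window (66.0%). Counted per window rather than per gene, and with genes that were not tested included, it stood in 35.7% of 32851 windows. That share is not comparable with those per gene. It was in 40.3% of respiratory chain genes, 75.0% of fibrillar collagen genes and 25.0% of macrophage genes, with 62, 8 and 32 genes that had a window. The windows of Klk1b22 (chr7:44112423-44112722, plus strand) and Camk2b (chr11:6065699-6065998, minus strand) are shown because these genes, one higher and one lower in PTKO, follow Ugt1a2 and Ugt2b38 in size of difference. The windows of Ugt1a2 and Ugt2b38 hold no match. Capitals mark the GC box on either strand.
Klk1b22: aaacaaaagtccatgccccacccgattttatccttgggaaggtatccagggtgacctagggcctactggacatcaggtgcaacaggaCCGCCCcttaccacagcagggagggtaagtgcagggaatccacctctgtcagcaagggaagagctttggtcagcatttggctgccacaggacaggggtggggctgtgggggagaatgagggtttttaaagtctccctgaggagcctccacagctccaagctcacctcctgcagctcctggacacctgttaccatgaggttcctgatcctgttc
Camk2b: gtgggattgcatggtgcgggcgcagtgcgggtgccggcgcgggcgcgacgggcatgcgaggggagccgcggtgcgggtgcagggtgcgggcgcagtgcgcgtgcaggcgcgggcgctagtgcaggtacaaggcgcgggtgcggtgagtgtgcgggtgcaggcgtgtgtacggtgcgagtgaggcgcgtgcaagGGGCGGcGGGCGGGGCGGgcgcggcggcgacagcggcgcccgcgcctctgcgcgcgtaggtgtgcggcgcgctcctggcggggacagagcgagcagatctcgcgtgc
The Klk1b22 window holds 1 match, on the opposite strand, and the Camk2b window holds 3, of which 2 overlap. A match is a description of these letters and shows no binding.

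In each of the 10 matrix lists more genes were lower than higher in PTKO. Of their 206 tested genes 90 (43.7%) were lower and 3 higher, where 11.8% of all genes were lower and 3.27% higher. The median difference was -0.63, or -0.52 relative to all genes, and 183 of the 206 values were below 0. Fewer cells of a type and less RNA per cell cannot be told apart in whole cortex, here or below. After median-of-ratios scaling 67 were lower. Without fl/fl replicate 2, 102 were lower (49.5%), without PTKO replicate 3, 64 (31.1%), and without both, 96 (46.6%). Each of these shares was above that of all genes under the same exclusion. The 6 compared libraries alone called 9 of them lower. The 3 that were higher were Bmp7, a growth factor that opposes TGF-beta, Leprel1, a collagen prolyl hydroxylase, and Clec3b, which encodes tetranectin; Leprel1 and Clec3b lost their calls without fl/fl replicate 1 (adjusted p 0.0693 and 0.0699), Leprel1 also without PTKO replicate 1 or 3 or fl/fl replicate 3.

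**Figure D2:**
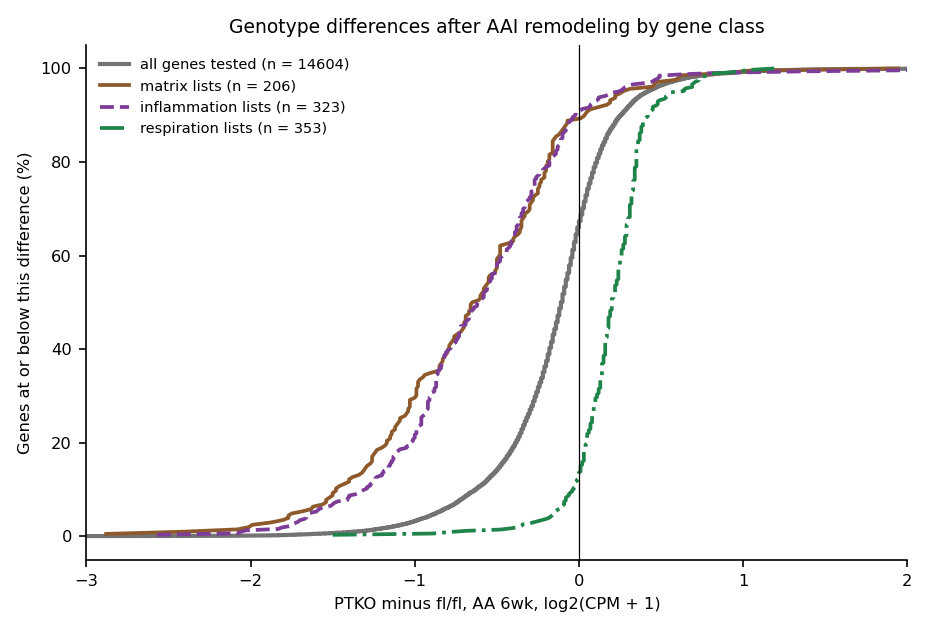
Cumulative distribution of the PTKO minus fl/fl difference at AA 6wk in log2(CPM + 1) (x axis) for matrix, inflammation and respiration lists and for all tested genes (y axis, percent of genes at or below the difference). The matrix and inflammation curves lie left of all genes (medians -0.63 and -0.61) and the respiration curve lies right of it (median 0.20). A few genes lie beyond the axis.

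The fibrillar collagens, which form the tensile fibres of scars, had 7 of 10 members lower and none higher. Col1a1 was at 165, 207 and 35.8 CPM in PTKO and at 585, 319 and 424 CPM in fl/fl. The groups did not overlap, but PTKO replicate 3 lay far below the other PTKO libraries. Col1a1 lies on the plus strand of chromosome 11 (94936224 to 94953042). Its difference was -1.99 ± 0.50 (SE; limma, adjusted p = 0.0181), and the call was lost without fl/fl replicate 1 or fl/fl replicate 3 (adjusted p 0.0939 and 0.0563). Col3a1, the partner collagen of young scars, was at 259, 313 and 43.8 CPM in PTKO against 898, 437 and 608 CPM in fl/fl. Its difference was -2.01 ± 0.58 (adjusted p = 0.0315), and this call was lost without PTKO replicate 3 as well as without fl/fl replicate 1 or 3 (adjusted p 0.0852 to 0.143). Col5a2, which nucleates the fibres, fell less (-1.04 ± 0.22, adjusted p = 0.00961) but was lower in every PTKO library, at 50.5, 69.4 and 42.4 CPM against 136, 89.9 and 108 CPM in fl/fl. Its call was lost without fl/fl replicate 1 (adjusted p = 0.0632). Col27a1 was the one fibrillar collagen with a positive difference (1.03) and did not pass (adjusted p = 0.0648), although its groups did not overlap. The 6 compared libraries alone called it higher and called no fibrillar collagen lower. With DESeq2, 1 member of the list was called higher and 7 lower.

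Among basement membrane genes 6 of 23 were lower, with a median of -0.40, and 11 without PTKO replicate 3. Col4a1 and Col4a2, the main chains of type IV collagen, fell by 0.78 and 0.74 on the log2 scale. Among the other collagens 6 of 13 were lower, including Col6a1 (-1.54 ± 0.35, adjusted p = 0.0125) and Col6a2 (-1.48 ± 0.33, adjusted p = 0.0115) of the microfibrils around fibroblasts. The calls of Col4a1, Col6a1 and Col6a2 were lost without fl/fl replicate 1 (adjusted p 0.0681 to 0.0770). Small proteoglycans had 3 of 11 lower (27.3%, against 11.8% of all genes). Without PTKO replicate 3, 1 was lower (9.09%, near the 8.86% of all genes), and after median-of-ratios scaling also 1 (9.09%, against 6.22%). Among the 3 was Dcn, the collagen-binding decorin, whose call (-0.99) was lost without any 1 library other than PTKO replicate 2 (adjusted p 0.0529 to 0.172).

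The matrix glycoproteins had 20 of 36 members lower and a median of -0.90. Fn1, which encodes fibronectin, the scaffold on which collagen is laid down, was at 277, 330 and 129 CPM in PTKO and at 901, 502 and 597 CPM in fl/fl (-1.50 ± 0.36, adjusted p = 0.0147), a call lost without fl/fl replicate 1 (adjusted p = 0.0868). Eln, the elastic fibre protein, was at 14.2, 13.4 and 9.26 CPM in PTKO and at 40.3, 52.2 and 28.8 CPM in fl/fl. For Eln the PTKO values lay close together and the difference of -1.62 ± 0.23 (adjusted p = 9.22e-04) stayed called whichever library was left out. Emilin1, which sits in elastic fibres, fell by 1.25 and Mfap5, a microfibril protein, fell by 2.08. Ltbp2 and Ltbp3, which bind elastic fibres or latent TGF-beta, fell by 1.81 and 0.70. Postn (periostin) had a difference of -0.95 without passing (adjusted p = 0.0667).

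Collagen processing genes had 11 of 25 members lower and 1 higher. Lox, the oxidase that cross-links collagen and elastin, was at 24.6, 45.9 and 22.3 CPM in PTKO against 105, 91.5 and 84.6 CPM in fl/fl. The fl/fl values were alike in all 3 libraries, fl/fl replicate 2 included, and the difference of -1.63 ± 0.24 (adjusted p = 9.22e-04) was called in 19 of 20 alternatives. Adamts2 and Bmp1, which trim the ends of procollagen, fell by 1.77 and 0.98, Bmp1 with no call without fl/fl replicate 1 (adjusted p = 0.0605).

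Genes of matrix breakdown moved in the same direction as genes of matrix itself. Of 27 matrix proteases 15 were lower and none higher, with a median of -1.03, and 9 were lower without PTKO replicate 3. Mmp12, the macrophage elastase, was at 147, 143 and 44.0 CPM in PTKO and at 1440, 377 and 693 CPM in fl/fl. Its difference was -2.88 ± 0.63 (adjusted p = 0.0101), and without fl/fl replicate 1, much the highest library, the call was lost (adjusted p = 0.0659). Mmp7 (matrilysin; plus strand of chromosome 9, 7692090 to 7699585), which injured tubule cells make, was at 1.45, 3.52 and 1.23 CPM in PTKO and at 17.8, 15.4 and 10.7 CPM in fl/fl (-2.40 ± 0.23, adjusted p = 3.60e-05). Mmp14, the membrane-bound collagenase, fell by 1.15 and Mmp11 fell by 1.30. The protease inhibitors had 8 of 12 lower (3 without PTKO replicate 3 or after median-of-ratios scaling), and Timp1 was at 23.7, 27.1 and 8.39 CPM in PTKO against 90.8, 36.7 and 71.1 CPM in fl/fl (-1.75 ± 0.35, adjusted p = 0.00670).

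Markers of fibroblasts and myofibroblasts were lower in 10 of 21 and higher in 1, with a median of -0.90, and lower in 6 without PTKO replicate 3. Vim (vimentin) was at 260, 275 and 158 CPM in PTKO against 636, 304 and 499 CPM in fl/fl (-1.03 ± 0.25, adjusted p = 0.0158), and the call was lost without PTKO replicate 3, fl/fl replicate 1 or fl/fl replicate 3 (adjusted p 0.0526 to 0.0941). Cspg4, the NG2 proteoglycan of pericytes, was at 36.1, 41.8 and 33.1 CPM in PTKO against 63, 61.2 and 59.6 CPM in fl/fl. It separated the groups with little spread (-0.72 ± 0.14, adjusted p = 0.00601). Acta2, the smooth muscle actin of myofibroblasts, was at 67.5, 85.9 and 38.8 CPM in PTKO against 103, 81.7 and 109 CPM in fl/fl. These overlapped, and Acta2 did not pass (-0.67 ± 0.24, adjusted p = 0.0741). Of 30 genes of TGF-beta signalling 5 were lower (16.7%, against 11.8% of all genes) and 1 higher (3.33%, against 3.27%). Without fl/fl replicate 2, 10 were lower (33.3%, against 19.9%). Without PTKO replicate 3, 3 of the 30 were lower, near the 8.86% of all genes. Tgfb1, the profibrotic ligand, fell (-0.79 ± 0.22, adjusted p = 0.0294), although its highest PTKO library (82.8 CPM) overlapped its lowest fl/fl library (82.7 CPM). The Tgfb1 call was lost without PTKO replicate 1 or 3 or fl/fl replicate 1 or 3 (adjusted p 0.0600 to 0.142). Pmepa1, a target of the pathway, fell (-0.83 ± 0.17, adjusted p = 0.00711) and stayed called whichever library was left out.

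**Figure D3:**
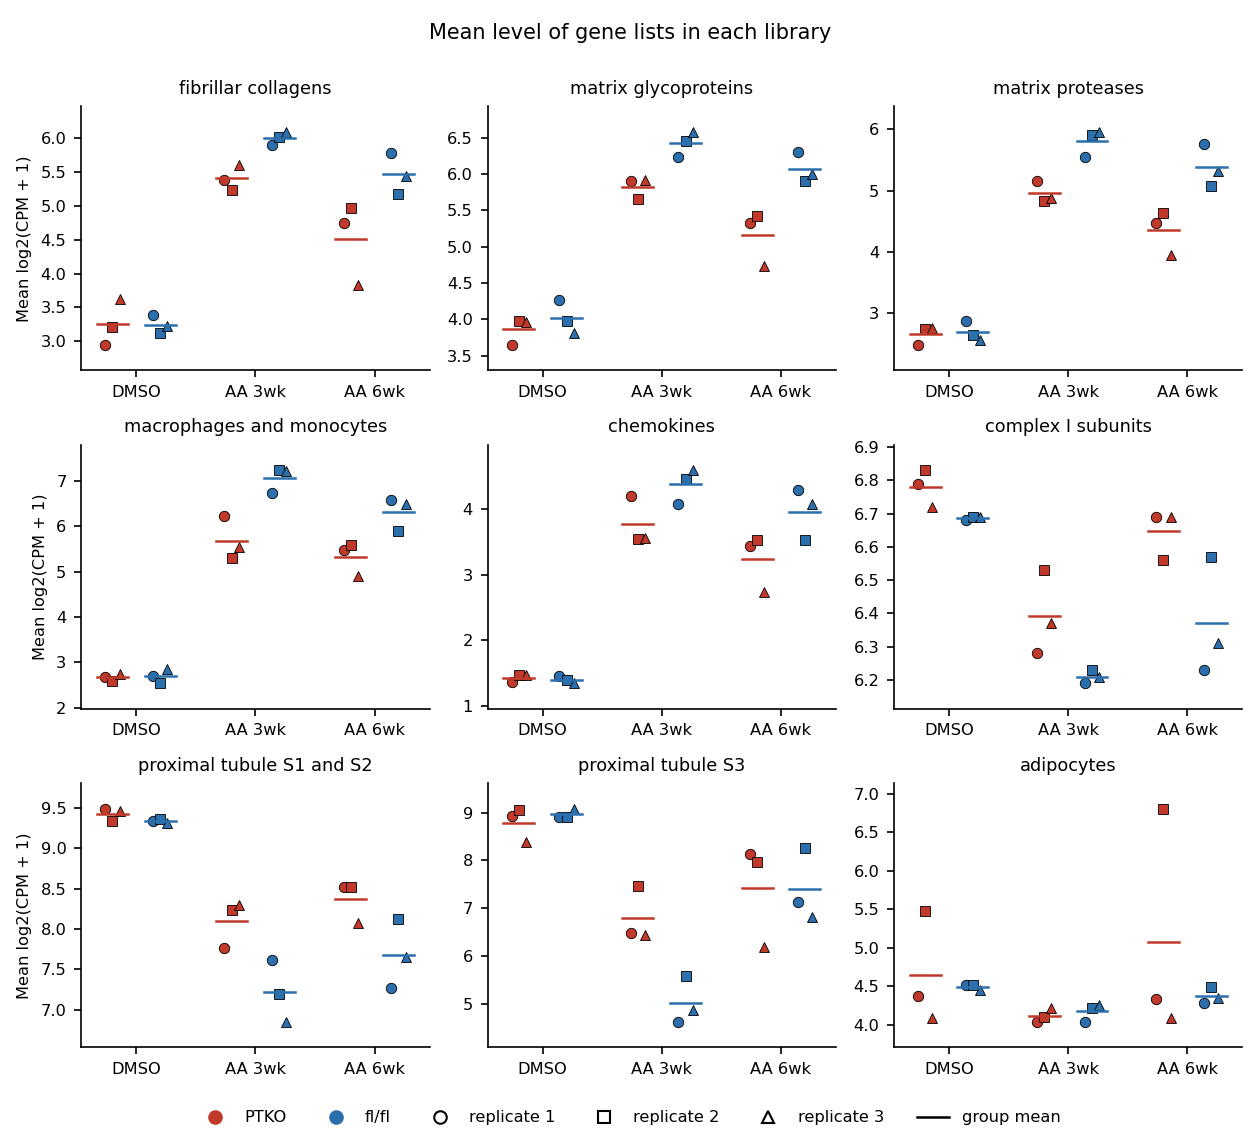
Mean log2(CPM + 1) of the tested members of 9 gene lists (y axis) in each of the 18 libraries under DMSO, at AA 3wk and at AA 6wk (x axis), with PTKO in red and fl/fl in blue, 1 symbol per replicate number and a bar at each group mean. At AA 6wk the 3 PTKO libraries lie below the 3 fl/fl libraries for fibrillar collagens (3.83 to 4.97 against 5.18 to 5.78) and macrophages (4.91 to 5.59 against 5.90 to 6.58). The groups overlap for chemokines (2.74 to 3.53 against 3.52 to 4.28) and complex I subunits (6.56 to 6.69 against 6.23 to 6.57). They also overlap for S1 and S2 genes (8.07 to 8.52 against 7.27 to 8.13). PTKO replicate 3 is the lowest in S3 genes and PTKO replicate 2 alone is high in adipocyte genes.

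Respiration genes were higher in PTKO by small amounts. Of 353 tested genes in 14 lists, 81 (22.9%) were higher and 4 lower, where 3.27% of all genes were higher. The median was 0.20, or 0.31 relative to all genes, and 306 values were above 0. After median-of-ratios scaling 129 were higher (36.5%, against 5.56% of all genes) and none lower. Without fl/fl replicate 2, 155 were higher (43.9%), without PTKO replicate 3, 45 (12.7%), and without both, 156 (44.2%). The 6 compared libraries alone called 3, and 2 genes passed with a rise of over 1 on the log2 scale.

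The nuclear-encoded subunits of the respiratory chain, which passes electrons to oxygen and drives ATP synthesis, moved together. Of 77 subunits of complexes I to V, 39 (50.6%) were higher and 1 lower, with a median of 0.33, and 75 values were above 0. The higher ones numbered 16 of 35 in complex I, 2 of 4 in complex II, 7 of 9 in complex III, 9 of 13 in complex IV with cytochrome c, and 5 of 16 in complex V. Uqcr10, a small subunit of complex III, was at 179, 166 and 170 CPM in PTKO and at 107, 132 and 119 CPM in fl/fl. PTKO replicate 3 lay with the other PTKO libraries here, unlike for the collagens, and the difference was 0.53 ± 0.08 (SE; limma, adjusted p = 0.00139). Sdhb, the iron-sulfur subunit of succinate dehydrogenase, was at 350, 303 and 344 CPM in PTKO against 198, 271 and 211 CPM in fl/fl (0.56 ± 0.11, adjusted p = 0.00529). Ndufs3, a core subunit of complex I, was at 71.2, 65.1 and 73.3 CPM in PTKO against 46.0, 54.2 and 54.1 CPM in fl/fl (0.44 ± 0.09, adjusted p = 0.00670).

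In many of these genes fl/fl replicate 2 lay nearest to PTKO. Its mean log2 level was 6.57 for complex I and 7.04 for complex V, against 6.56 and 7.03 in PTKO replicate 2, so the list means of the groups overlapped. Cox4i1, a core subunit of cytochrome c oxidase, was at 495, 452 and 553 CPM in PTKO and at 363, 419 and 388 CPM in fl/fl (0.36 ± 0.09, adjusted p = 0.0150). Atp5c1, the rotor shaft of ATP synthase, was at 511, 459 and 520 CPM in PTKO and at 348, 439 and 371 CPM in fl/fl (0.37 ± 0.09, adjusted p = 0.0198). In both the lowest PTKO library was only a little above fl/fl replicate 2. Both calls were lost without fl/fl replicate 1 (adjusted p 0.0865 and 0.114), that of Atp5c1 also without PTKO replicate 1 or 3 or fl/fl replicate 3. Over the 77 subunits, 64 (83.1%, against 5.84% of all genes) were higher without fl/fl replicate 2 and 12 (15.6%, against 2.78%) without PTKO replicate 3. Ndufc2, the 1 subunit called lower (-0.41, adjusted p = 0.0457), lost its call whichever library was left out (adjusted p 0.0689 to 0.139).

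Pathways that feed the chain had higher members too. Of 28 genes of the tricarboxylic acid cycle and pyruvate dehydrogenase 10 were higher and none lower, with a median of 0.33, and 17 were higher without fl/fl replicate 2. Mdh1, the cytosolic malate dehydrogenase, was at 1120, 969 and 957 CPM in PTKO against 614, 866 and 631 CPM in fl/fl (0.54 ± 0.14, adjusted p = 0.0196), a call lost without PTKO replicate 1 or fl/fl replicate 1 or 3 (adjusted p 0.0745 to 0.108). Of 30 genes of fatty acid oxidation, the main fuel use of the proximal tubule, 8 were higher, and 17 without fl/fl replicate 2. Eci1, which isomerizes unsaturated acyl chains, was at 82.9, 90.7 and 78.1 CPM in PTKO against 39.8, 50.5 and 42.1 CPM in fl/fl (0.92 ± 0.11, adjusted p = 2.05e-04), and it was also higher under DMSO (0.61). Acaa2, which ends each mitochondrial cycle, was higher by 0.79 and Acsm1, an acyl-CoA synthetase for medium chains, by 1.19. Of 32 genes of branched-chain amino acid catabolism 8 were higher (24 without fl/fl replicate 2), including Mut (0.76 ± 0.17, adjusted p = 0.0107) and Ivd (0.73 ± 0.17, adjusted p = 0.0142), enzymes of propionate and leucine breakdown. Both calls were lost without fl/fl replicate 1 or 3, that of Ivd also without PTKO replicate 1 (adjusted p 0.0527 to 0.0864). Bckdhb, a subunit of the branched-chain dehydrogenase, was at 25.0, 18.8 and 44.5 CPM in PTKO against 39.0, 31.7 and 27.5 CPM in fl/fl and did not pass.

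Genes that build mitochondria had fewer calls for their number than the respiratory chain subunits. Of 76 mitochondrial ribosomal protein genes 8 were higher (10.5%, against 3.27% of all genes), with a median of 0.16. Without fl/fl replicate 2, 18 were higher (23.7%, against 5.84%), and without PTKO replicate 3, 5 (6.58%, against 2.78%). Of 36 assembly factors 1, Cox18, was higher (2.78%, below the 3.27% of all genes), and 7 were without fl/fl replicate 2 (19.4%, against 5.84%). Of 19 regulators of mitochondrial biogenesis 3 were higher (15.8%, against 3.27%) and 1 was lower. Without PTKO replicate 3, 1 was higher (5.26%, against 2.78%). Ppara, which turns on fatty acid oxidation, was higher by 0.98 ± 0.28 (adjusted p = 0.0296) and Esrra, which drives respiratory genes, by 0.24 ± 0.07 (adjusted p = 0.0365). Both calls were lost without PTKO replicate 1, fl/fl replicate 1 or fl/fl replicate 3, that of Ppara also without PTKO replicate 2 and that of Esrra without PTKO replicate 3 (adjusted p 0.0544 to 0.151). Ppargc1a, their coactivator, was at 101, 76.5 and 163 CPM in PTKO and at 104, 99.6 and 87.7 CPM in fl/fl, overlapped, and turned negative (-0.14) without PTKO replicate 3. Of 21 glycolysis genes 2 were lower (9.52%, against 11.8% of all genes). After median-of-ratios scaling none was lower and 2 were higher. The lower ones numbered 5 without fl/fl replicate 2 and 0 without PTKO replicate 3. With all libraries, the 2 were the leukocyte-rich hexokinase Hk3 and the lactate exporter Slc16a3, and both calls were lost without PTKO replicate 1 or 3 or fl/fl replicate 1 or 3 (adjusted p 0.0718 to 0.211).

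**Figure D4:**
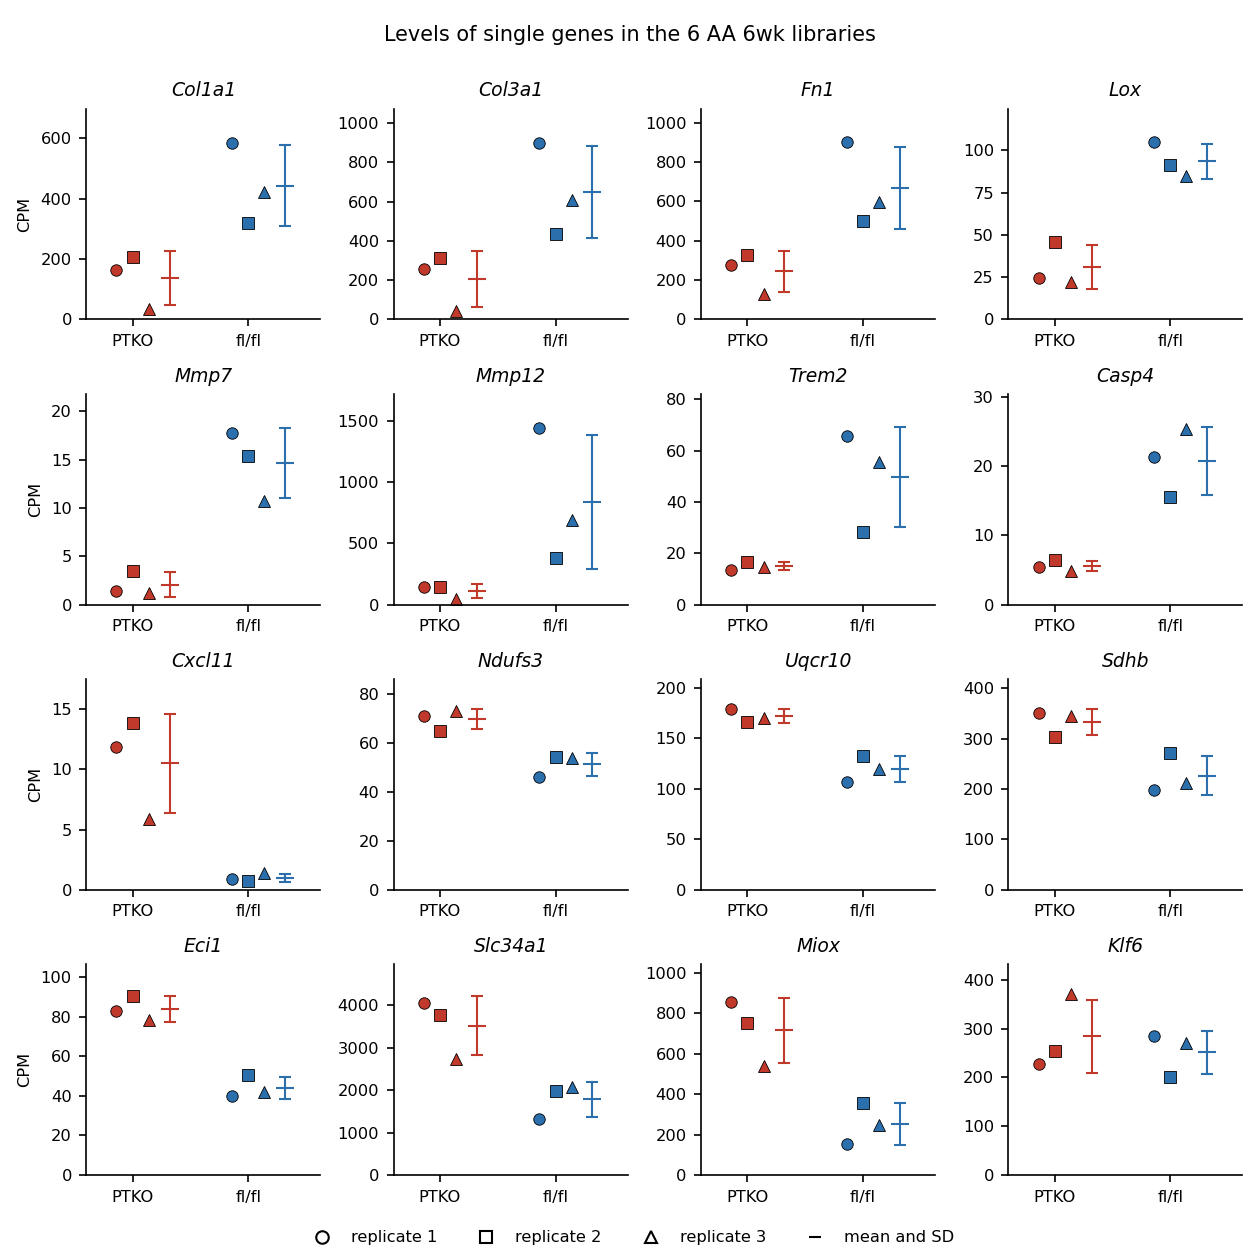
Levels in CPM (y axis, from 0) of 16 genes in the 3 PTKO and 3 fl/fl libraries at AA 6wk (x axis), 1 symbol per replicate number, with the mean and SD beside each group. The collagens Col1a1 and Col3a1 vary within PTKO (35.8 to 207 and 43.8 to 313), Lox and Casp4 separate the groups with less spread, and Klf6 overlaps.

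Inflammation genes were lower in PTKO, with a strong dependence on single libraries. Of 323 tested genes in 14 lists, 80 (24.8%) were lower and 4 higher, against 11.8% and 3.27% of all genes. The median was -0.61, or -0.51 relative to all genes, and 293 values were below 0. After median-of-ratios scaling 53 (16.4%) were lower, against 6.22% of all genes. Without fl/fl replicate 2, 147 (45.5%) were lower, against 19.9% of all genes, and without both libraries that stood apart 115 (35.6%), against 22.4%. Without PTKO replicate 3 the count was 32 (9.91%), close to the 8.86% of all genes called lower in that fit. The 6 compared libraries alone called 8.

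Of 41 macrophage and monocyte genes 20 were lower and none higher, with a median of -1.01, and 30 were lower without fl/fl replicate 2 and 11 without PTKO replicate 3. Trem2, a lipid-sensing receptor of scar-associated macrophages, was at 13.6, 16.8 and 14.6 CPM in PTKO and at 65.8, 28.2 and 55.4 CPM in fl/fl. Here the spread lay in fl/fl, and the difference of -1.59 ± 0.33 (limma, adjusted p = 0.00714) was lost without fl/fl replicate 1 (adjusted p = 0.0508). Mrc1, the mannose receptor, was at 66.7, 63.5 and 40.1 CPM in PTKO against 111, 89.0 and 118 CPM in fl/fl (-0.92 ± 0.19, adjusted p = 0.00740). Lyz1 fell (-2.57 ± 0.38, adjusted p = 0.00113), although reads of lysozyme genes Lyz1 and Lyz2 are hard to tell apart. The pan-macrophage marker Emr1 (F4/80, now Adgre1) was at 58.8, 53.9 and 20.0 CPM in PTKO against 86.9, 61.6 and 90.9 CPM in fl/fl. The groups of Emr1 were separate only narrowly, and it did not pass (-0.96 ± 0.40, adjusted p = 0.113). With PTKO replicate 3 left out, 11 macrophage genes were lower, and with fl/fl replicate 2 left out, 30.

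Of 33 chemokines 9 were lower (27.3%, against 11.8% of all genes) and 1, Cxcl11, higher. The lower ones numbered 16 without fl/fl replicate 2 (48.5%, against 19.9%) and 4 without PTKO replicate 3 (12.1%, against 8.86%). Ccl3, which draws monocytes, was at 1.61, 3.21 and 0.921 CPM in PTKO and at 12.6, 5.80 and 7.89 CPM in fl/fl (-1.76 ± 0.35, adjusted p = 0.00619). Ccl2, the main monocyte attractant, was at 29.8, 35.8 and 17.0 CPM in PTKO and at 65.9, 30.1 and 69.0 CPM in fl/fl. For Ccl2 fl/fl replicate 2 lay among the PTKO libraries, and the difference of -0.94 ± 0.38 did not pass (adjusted p = 0.0984). Of 15 chemokine receptors 4 were lower (6 without fl/fl replicate 2 and 2 without PTKO replicate 3), with Ccr1 at -1.71 ± 0.28 (adjusted p = 0.00215) and the macrophage receptor Cx3cr1 at -1.40 ± 0.31 (adjusted p = 0.0114), Cx3cr1 with no call without fl/fl replicate 1 (adjusted p = 0.0681).

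Among cytokines and their receptors 10 of 38 were lower and none higher. The count was 21 (55.3%, against 19.9% of all genes) without fl/fl replicate 2, and without PTKO replicate 3 it was 3 (7.89%, against 8.86%). Tnfrsf1b, the TNF receptor of leukocytes, was at 44.8, 54.8 and 27.3 CPM in PTKO against 151, 88.7 and 122 CPM in fl/fl (-1.51 ± 0.29, adjusted p = 0.00506). Il1r1, the interleukin-1 receptor, was at 22.4, 22.6 and 30.4 CPM in PTKO against 49.5, 38.0 and 39.8 CPM in fl/fl (-0.74 ± 0.15, adjusted p = 0.00777), a call lost without fl/fl replicate 1 (adjusted p = 0.0538). Of 31 NF-kappaB members and targets 8 were lower (25.8%, against 11.8% of all genes) and 1 higher. Without fl/fl replicate 2, 20 were lower (64.5%, against 19.9%). Without PTKO replicate 3, 3 were lower (9.68%, near the 8.86% of all genes), and after median-of-ratios scaling 4 (12.9%, against 6.22%). Birc3, an inhibitor of cell death, was at 39.2, 37.5 and 41.4 CPM in PTKO against 76.5, 57.2 and 77.9 CPM in fl/fl (-0.81 ± 0.14, adjusted p = 0.00312), and the PTKO libraries were nearly equal. The higher one was Sod2, the superoxide dismutase of mitochondria (0.45 ± 0.11, adjusted p = 0.0178), a call lost without PTKO replicate 1 or fl/fl replicate 1 or 3 (adjusted p 0.0606 to 0.10).

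Pyroptosis and necroptosis genes had 4 of 17 lower (23.5%, against 11.8% of all genes). The count was 10 without fl/fl replicate 2 (58.8%, against 19.9%) and 2 without PTKO replicate 3 (11.8%, against 8.86%). Casp4, the caspase that senses lipopolysaccharide in the cytosol, was at 5.45, 6.42 and 4.86 CPM in PTKO and at 21.3, 15.5 and 25.3 CPM in fl/fl. No library of one group came near the other. The difference was -1.70 ± 0.20 (adjusted p = 1.80e-04) and stayed called whichever library was left out. Aim2, a sensor of cytosolic DNA, also fell (-1.41 ± 0.29, adjusted p = 0.00735).

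The lymphocyte lists were those of B and plasma cells and of T and natural killer cells. Of 12 genes of B and plasma cells 6 were lower (3 without PTKO replicate 3), among them Pou2af1, a coactivator of antibody genes, at 4.62, 5.84 and 6.90 CPM in PTKO against 17.6, 18.6 and 18 CPM in fl/fl (-1.50 ± 0.32, adjusted p = 0.00842). Igj, the joining chain of secreted antibodies, was at 264, 356 and 289 CPM in PTKO against 905, 911 and 830 CPM in fl/fl (-1.55 ± 0.42, adjusted p = 0.0247). In these plasma cell genes the 3 libraries of each group lay close together, although the call of Igj was lost without PTKO replicate 1 or 3 or fl/fl replicate 1 or 3 (adjusted p 0.0525 to 0.0926). Of 31 genes of T and natural killer cells 3 were lower (9.68%, against 11.8% of all genes), 8 without fl/fl replicate 2 and 0 without PTKO replicate 3, while all 31 values were below 0 (median -0.87). The T cell marker Cd3e was at 6.59, 9.15 and 2.35 CPM in PTKO against 14.6, 8.36 and 10.5 CPM in fl/fl and did not pass (adjusted p = 0.138). Of 15 dendritic cell genes 7 were lower (46.7%, against 11.8% of all genes), but 11 without fl/fl replicate 2 and 3 after median-of-ratios scaling. The count was 2 without PTKO replicate 3 (13.3%, against 8.86%) and 1 with quantile normalization or edgeR. Of 9 neutrophil genes 1 was lower (11.1%, near the share of all genes).

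Of 48 interferon-stimulated genes 2 were lower (4.17%, against 11.8% of all genes) and 1 higher. The lower ones numbered 13 (27.1%, against 19.9%) without fl/fl replicate 2, without both libraries that stood apart 8, and without PTKO replicate 3 none. Of 11 genes of class II presentation 2 were lower (H2-Oa and H2-Ob, with no call without fl/fl replicate 1, and H2-Ob with none without PTKO replicate 3, adjusted p 0.0752 to 0.108), and of 15 genes of class I presentation none was called. B2m, the light chain of class I molecules, was at 1950, 2750 and 1380 CPM in PTKO and at 2340, 1600 and 2360 CPM in fl/fl, with overlapping groups. Of 28 complement genes 6 were lower (21.4%, against 11.8% of all genes), and 11 without fl/fl replicate 2 (39.3%, against 19.9%). Without PTKO replicate 3, 2 were lower (7.14%, against 8.86%) and 3 higher (10.7%, against 2.78%). With all libraries 1, the complement inhibitor Cd59a, was higher (1.38 ± 0.34, adjusted p = 0.0160). Its call was lost without fl/fl replicate 1 (adjusted p = 0.0726) or without both libraries that stood apart (adjusted p = 0.0562).

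Of 33 tested genes of the early proximal tubule (S1 and S2) 9 were higher in PTKO (27.3%, against 3.27% of all genes), none was lower and 24 were not called, with a median of 0.55. The higher ones numbered 19 without fl/fl replicate 2, 13 without PTKO replicate 3 and 22 without both, where 5.84%, 2.78% and 6.92% of all genes were higher. Slc34a1, the phosphate cotransporter, was at 4040, 3770 and 2740 CPM in PTKO and at 1310, 1980 and 2070 CPM in fl/fl (0.99 ± 0.24, adjusted p = 0.0166), a call lost without PTKO replicate 1 or fl/fl replicate 1 (adjusted p 0.0638 and 0.101). Under DMSO Slc34a1 averaged 9020 CPM in PTKO and 8540 CPM in fl/fl, above every library at AA 6wk. Miox, which breaks down inositol, was at 855, 753 and 538 CPM in PTKO against 153, 358 and 246 CPM in fl/fl (1.56 ± 0.28, adjusted p = 0.00349). Slc22a8, an organic anion transporter, was at 250, 257 and 203 CPM in PTKO against 34.9, 102 and 68.0 CPM in fl/fl (1.90 ± 0.32, adjusted p = 0.00254), and Slc7a7, a basolateral amino acid carrier, was higher by 1.0 ± 0.14 (adjusted p = 6.98e-04).

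In the S3 segment the counts turned on fl/fl replicate 2 and PTKO replicate 3. None of 19 S3 genes was called and the median was 0.09. Kap, an androgen-dependent protein of the straight tubule, was at 9360, 6920 and 683 CPM in PTKO and at 4350, 13100 and 3060 CPM in fl/fl. PTKO replicate 3 was thus the lowest and fl/fl replicate 2 the highest of all 6. Without both, 6 of the 19 were higher in PTKO and the median was 1.04, whereas at AA 3wk 13 of the 19 were higher.

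Podocyte genes, which mark the filter of the glomerulus, were lower in 9 of 16 (56.2%, against 11.8% of all genes) and higher in none, with a median of -0.50. The count was 5 after median-of-ratios scaling and 3 with edgeR. Ptpro, a phosphatase of the podocyte surface, was at 46.7, 36.8 and 39.4 CPM in PTKO and at 65.1, 67.1 and 73.2 CPM in fl/fl (-0.73 ± 0.13, adjusted p = 0.00388). Cdkn1c, a cell cycle inhibitor of mature podocytes, was at 48.2, 35.7 and 50.9 CPM in PTKO against 76.0, 75.7 and 88.2 CPM in fl/fl (-0.83 ± 0.17, adjusted p = 0.00659). The summed level of the list was 1190 to 1230 CPM in PTKO and 1700 to 1750 CPM in fl/fl, and neither fl/fl replicate 2 nor PTKO replicate 3 lay apart in it. Without fl/fl replicate 2, 9 were lower, and without PTKO replicate 3, 7. The share of glomeruli in each piece of cortex was not measured, and its part in this result was not tested.

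Other lists of the tubule and of neighbouring cells showed fewer calls. Of 28 tubular injury genes 5 were lower (17.9%, against 11.8% of all genes). Without fl/fl replicate 2, 10 were lower (35.7%, against 19.9%), and without PTKO replicate 3, 3 (10.7%, near the 8.86% of all genes). With all libraries the 5 were Vim, Anxa1, Anxa2, Timp1 and Cd44, and of these only Timp1 stayed called without fl/fl replicate 1. Havcr1 (KIM-1), the surface receptor of injured proximal tubule, was at 269, 351 and 116 CPM in PTKO and at 210, 119 and 257 CPM in fl/fl, did not pass, and changed sign without PTKO replicate 2 (-0.07) or fl/fl replicate 2 (-0.06). Lcn2 (NGAL) was at 182, 262 and 348 CPM in PTKO and at 540, 285 and 548 CPM in fl/fl and did not pass (-0.78 ± 0.33, adjusted p = 0.117). Of 25 genes of failed-repair tubule 6 were lower (24.0%, against 11.8% of all genes). Among them Dcdc2a was at 89.3, 93.0 and 91.2 CPM in PTKO and at 174, 178 and 160 CPM in fl/fl (-0.90 ± 0.15, adjusted p = 0.00262). The Dcdc2a libraries of each group were close together, and its difference at AA 3wk was 0.24 without passing. Of 37 cell cycle genes 5 were lower (13.5%, near the 11.8% of all genes), none after median-of-ratios scaling or without PTKO replicate 3, and 24 without fl/fl replicate 2 (64.9%, against 19.9%). Of 27 p53 targets 2 were lower (7.41%), of 15 Krüppel-like factors 1 (Klf13, which kept its call only where fl/fl replicate 2 was the library left out), and of 21 endothelial genes 2 (9.52%), shares below that of all genes. No gene of the thick ascending limb (16), adipocyte (10) or urothelium (10) lists was called.

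The genotype difference after remodeling was set beside that at the end of AAI, in which 2077 genes (14.2%) were called, 908 (6.22%) higher and 1169 (8.0%) lower in PTKO, from other libraries. Of the 2198 genes called at AA 6wk, 853 were called in the same direction at AA 3wk, which is 38.8% of the 6wk and 41.1% of the 3wk calls, and 3 in the opposite direction. Across the 14604 genes, which are not independent, the differences at the 2 times had a Pearson r of 0.69. Macrophage genes were lower in 20 of 41 at AA 6wk and in 32 of 41 at AA 3wk (medians -1.01 and -1.41). Basement membrane genes were lower in 6 of 23 at AA 6wk and in none at AA 3wk, and respiratory chain subunits higher in 39 of 77 at AA 6wk and in 9 of 77 at AA 3wk. Genes of the tricarboxylic acid cycle and pyruvate dehydrogenase were higher in 10 of 28 at AA 6wk but in 15 at AA 3wk. For fatty acid oxidation these counts were 8 and 14 of 30, and for branched-chain amino acid catabolism 8 and 15 of 32. For S1 and S2 genes they were 9 and 19 of 33. These counts do not show that the times differ. The test of the change in genotype difference between the times called no gene with limma (smallest adjusted p = 0.0958, 1387 genes at an unadjusted p under 0.05), none with edgeR and 48 with DESeq2.

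**Figure D5:**
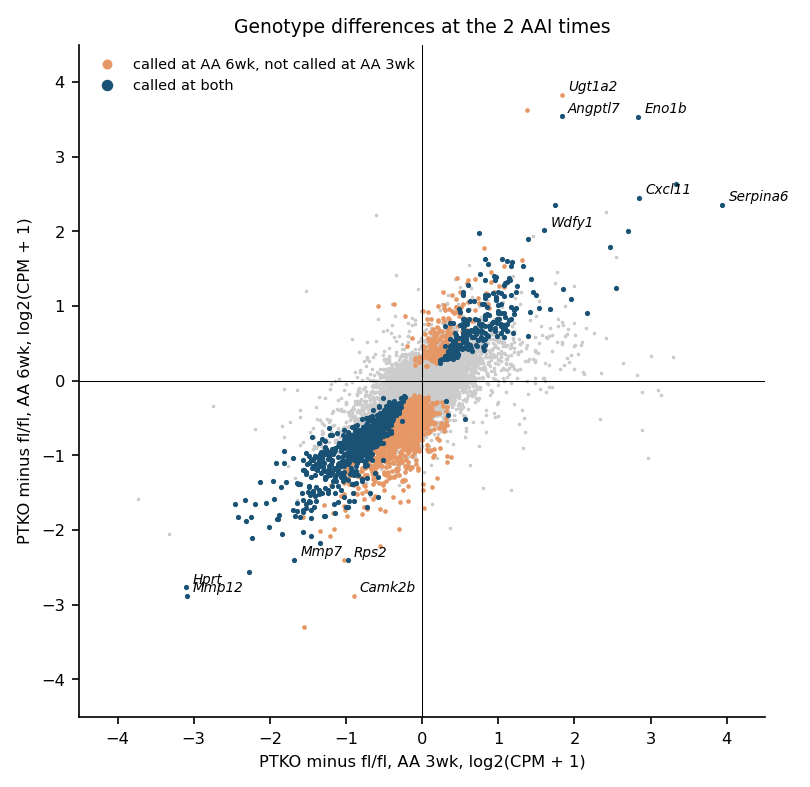
PTKO minus fl/fl difference in log2(CPM + 1) at AA 6wk (y axis) against AA 3wk (x axis) for the tested genes, with the 856 genes called at both times in dark blue, genes called at AA 6wk alone in orange and the rest in grey. Most points called at both have the same sign on both axes. Ugt2b38 (-7.38 at AA 6wk) lies outside the axes.

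Under DMSO 42 genes (0.288%) differed between the genotypes, and 37 of them (88.1%) differed in the same direction at AA 6wk. In 26 genes the difference was called in the same direction under DMSO, at AA 3wk and at AA 6wk, 19 higher and 7 lower in PTKO. Wdfy1, a lipid-binding endosomal protein, was at 86.1, 85.7 and 84.0 CPM in PTKO and at 20.3, 18 and 23.1 CPM in fl/fl after remodeling, and its difference was 2.01 at AA 6wk, 1.6 at AA 3wk and 1.82 under DMSO. Nnt, the mitochondrial transhydrogenase that makes NADPH and of which the C57BL/6J substrain carries a partly deleted gene, was at 303, 261 and 300 CPM in PTKO and at 83.0, 115 and 88.0 CPM in fl/fl. Its difference was 1.6 at AA 6wk, 1.11 at AA 3wk and 0.84 under DMSO, and it was picked out after its values were seen. The labels give C57Bl/6 with no substrain. Others of the 26 were Alad and Sult1c2, higher, and Tbc1d4 and Uchl1, lower, which were also picked afterwards. The genotype difference at AA 6wk departed from that under DMSO in 10 genes (0.0685%), 4 with a more positive and 6 with a more negative difference. None was called without fl/fl replicate 1 (1274 had an unadjusted p under 0.05), 250 were without fl/fl replicate 2 and 473 without both libraries that stood apart, and edgeR called 1.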

How the data were processed

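Kidney cortex RNA of 18 libraries (6 groups of 3) was sequenced with a stranded total RNA kit, per the labels' protocols. The submitters' processing notes name bcl2fastq 2.19, kallisto and the mm10 genome. The deposited values are CPM per gene symbol, which the authors scaled by library total; mitochondrially encoded genes were not analysed here. All 433116 values were whole reads within 0.01 of a read, so reads and depth were recovered. Depth here is the total of reads counted to genes in the table. Symbols were matched to GENCODE M21, and 14467 of 14604 tested symbols matched 1 gene; 27 symbols are spreadsheet dates.

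Genes with at least 1 CPM in 3 or more libraries were tested with limma 3.58.1 (R 4.3.3) on log2(CPM + 1), with 6 group means over all 18 libraries, a variance trend and Benjamini-Hochberg adjustment over all tested genes (threshold 0.05). A difference is PTKO minus fl/fl, so a positive value is higher in PTKO, and fold changes of low genes are understated on this scale. The scripts were tested on simulated data. Alternatives were edgeR 4.0.16 and DESeq2 1.42.0 on the recovered reads, other scalings, filters, pseudocounts, spreads and blocks, and fits without 1 or 2 libraries. Named genes were Klf6, up to 10 genes in each direction with the largest difference among those called, at 5 CPM or more and not overlapping, up to 4 called genes per list with the smallest adjusted p (or else its most abundant member), and fixed examples (Havcr1, Lcn2, Col1a1, Col3a1, Fn1, Acta2, Tgfb1, Ppargc1a, Emr1, Ccl2, Slc34a1, Bckdhb). One gene given by this rule is not reported here. Leprel1, Clec3b, Ndufc2, Col27a1, Postn, Cd3e and Cd44 stand outside that rule and were chosen after their values were seen. The genes, the 59 lists and the tests were chosen with earlier results of these data known.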

Additional observations from a re-analysis of the deposited data

Results flagged for a closer look

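In 8 of the named genes the genotype difference at AA 6wk departed from that under DMSO by a test of the difference itself (limma, Benjamini-Hochberg adjustment over all genes, n = 3 libraries a group). These calls depended on single libraries: none was made without fl/fl replicate 1 (1274 genes at an unadjusted p under 0.05), and edgeR or a pseudocount of 0.1 called 1 gene each. Serpina6 averaged 10.1 ± 4.27 CPM in PTKO and 1.15 ± 0.749 CPM in fl/fl at AA 6wk (SD), and was at 0 in PTKO and 0.408 ± 0.461 CPM in fl/fl under DMSO, a change of 2.79 ± 0.45 (SE, adjusted p = 0.0345). Mmp7 averaged 2.07 ± 1.27 CPM in PTKO and 14.6 ± 3.58 CPM in fl/fl at AA 6wk, against under 0.1 CPM in both under DMSO, a change of -2.37 ± 0.33 (adjusted p = 0.0161).

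Wnt5b, a secreted signal, averaged 5.07 ± 0.828 CPM in PTKO and 2.40 ± 0.307 CPM in fl/fl at AA 6wk, and 5.2 ± 1.08 CPM in PTKO and 8.80 ± 0.458 CPM in fl/fl under DMSO. Its change was 1.51 ± 0.21 (adjusted p = 0.0161). Gsta3, a glutathione transferase, changed by 1.52 (adjusted p = 0.0490) and Reep6, a membrane-shaping protein of the endoplasmic reticulum, by 1.10 (adjusted p = 0.0345). At AA 6wk itself the Reep6 difference was 0.40 to 0.42 without PTKO replicate 2 or 3 or fl/fl replicate 1 or 3. In each of these fits its call at AA 6wk was lost (limma, adjusted p 0.0614 to 0.108).

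Pdpn (podoplanin, a surface protein of podocytes and stromal cells) averaged 22.1 ± 5.89 CPM in PTKO and 79.6 ± 18 CPM in fl/fl at AA 6wk, and 4.07 CPM in PTKO and 4.92 CPM in fl/fl under DMSO, a change of -1.59 ± 0.26 (adjusted p = 0.0399). Piezo2, a mechanosensitive channel, changed by -1.75 ± 0.31 and Synj2, a lipid phosphatase, by -1.34 ± 0.23 (adjusted p = 0.0490 for both).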

How the results depend on the processing

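The 2198 calls became 818 with array weights by group, 163 on the compared libraries alone, 489 with a fold minimum of 1 and 441 to 4279 without 1 or 2 libraries. Higher calls (477) became 1117 with DESeq2, 823 with edgeR, 812 and 828 with median-of-ratios and quantile scaling, 212 with weights, 50 alone, 83 with the fold minimum and 124 to 1010 without libraries. Lower calls (1721) became 677 with edgeR, 908 and 819 with those scalings, 606 with weights, 113 alone, 406 with the fold minimum and 317 to 3269 without libraries. The cause was not tested.

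Matrix genes called lower (90) became 51 with weights, 9 alone, 54 with edgeR, 52 with the fold minimum and 24 to 102 without libraries. Respiration genes called higher (81) became 157 with DESeq2, 124 with edgeR, 129 with median-of-ratios scaling, 29 with weights, 3 alone, 2 with the fold minimum and 10 to 156 without libraries. Inflammation genes called lower (80) became 40 with edgeR, 53 and 50 with the scalings, 29 with weights, 8 alone, 49 with the fold minimum and 13 to 147 without libraries.

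The change from AA 3wk, with 0 calls, had 48 with DESeq2, 3 on the libraries involved alone, 5 without the filter and 0 to 2 without libraries. The change from DMSO, with 10 calls, had 85 with DESeq2, 1 with edgeR, 5 at 5 CPM, 1 with a pseudocount of 0.1, 19 with quantile scaling and 0 to 473 without libraries. Klf6 ranged from -0.20 to 0.30 without libraries and was -0.05 without PTKO replicate 3. Left without libraries, Havcr1 ranged up to 0.72, Ppargc1a up to 0.41 and Bckdhb down to -0.58. Havcr1 turned to -0.07 without PTKO replicate 2 and -0.06 without fl/fl replicate 2, Ppargc1a to -0.14 without PTKO replicate 3 and -0.11 without both fl/fl replicate 2 and PTKO replicate 3, and Bckdhb to 0.04 without PTKO replicate 2.

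With the replicate block the count was 2024. Same-numbered libraries deviated with correlations of -0.194, -0.069 and 0.043. Deviations from means of only 3 libraries cannot show or exclude a pairing by number. With the replicate block on the compared libraries alone 10 genes were called, 5 higher and 5 lower, with 0 in the matrix, respiration and inflammation counts, 1 for the change from AA 3wk and 0 for that from DMSO.

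Depth was lowest in fl/fl replicate 2, and 3 libraries a group limit every count.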
